A study of Mus musculus with 10 samples.

Results

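Primary Leydig cells of mice aged 24 months were compared with those of mice aged 2 months. They make up 4 of the 10 RNA sequencing libraries of the series, 2 for each age, and all genes that passed a count filter were members, 16381 of 25239 gene symbols. Both groups carry the treatment label None and were isolated from testes; the sources used here do not give strain, genotype, isolation method or purity. The other 6 libraries come from the MLTC-1 line, grown from a Leydig cell tumour of a mouse, and the 3 of them given the solvent DMSO served as a reference that holds no other testis cell types. The labels do not say whether the 2 replicates of an age were separate animals, and the p-values therefore reflect only how far these libraries differ, which may be technical. The series title concerns impaired ketone body production in Leydig cells and ageing of the testis.

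Leydig cells lie between the seminiferous tubules and make testosterone from cholesterol under the control of luteinising hormone. The hormone binds its receptor Lhcgr, raises cyclic AMP, and drives delivery of cholesterol to the mitochondria by Star, after which Cyp11a1, Hsd3b enzymes, Cyp17a1 and Hsd17b3 act in turn. With age Leydig cells are known to make less testosterone, and the tissue around them gains immune cells. Ketone bodies are made in mitochondria from acetyl-CoA and are used through Oxct1.

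The libraries held 23668785 and 24234367 counts (2 months) against 17407456 and 23714601 (24 months), and the 10 most abundant genes took 4.80% and 4.54% against 9.65% and 6.64% of them. The 24-month replicates lay further apart than the 2-month replicates (chi-square per degree of freedom 134 against 18.9). The labelled cell type was checked by 10 Leydig cell markers, whose levels summed to 22730.1 and 20585 against 26552 and 18326 CPM, above each other marker list in every library. In a bulk sample, fewer cells of a type and less RNA per cell cannot be told apart. Levels are in CPM, the count relative to the library's total after TMM scaling, with the 2-month replicates 1 and 2 first and the 24-month replicates 1 and 2 after the word against.

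The 2 ages differed by transcript length before anything else. In the tenth of genes with the shortest transcripts (median 792 nucleotides), the median log2 fold change at 24 months was 1.41, and in the tenth with the longest (median 8089 nucleotides) it was -1.41. The 24-month libraries also differed from each other along the same axis: replicate 2 against replicate 1 stood at a median log2 of -0.71 for the shortest and 0.61 for the longest transcripts. The 2-month replicates stood at 0.02 and -0.09. Replicate 1 at 24 months was thus further from the 2-month libraries along this axis than replicate 2 was. The sources used here give no RNA quality values, and what set the length trend was not tested.

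**Figure D1:**
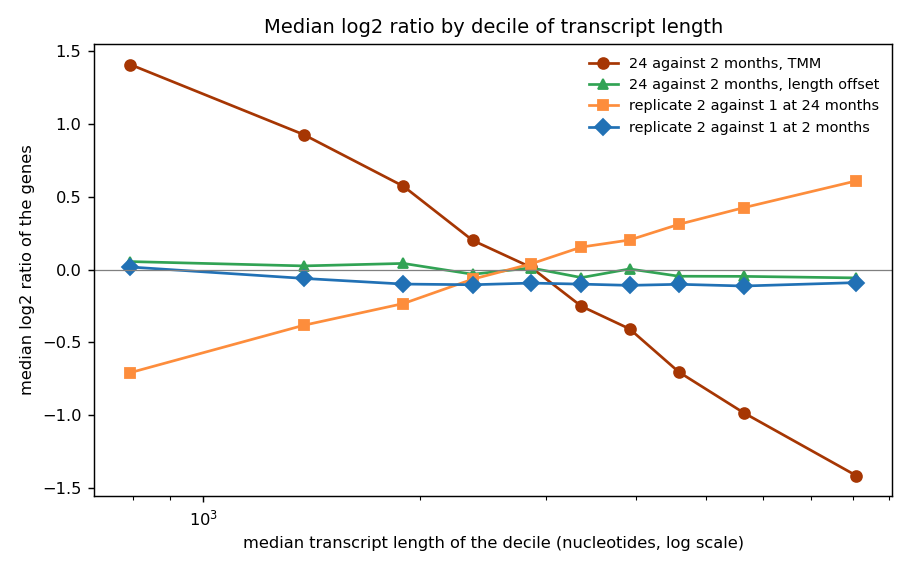
Median log2 ratio of genes (vertical axis) in 10 groups of equal size by transcript length (horizontal axis, nucleotides, log scale). The TMM ratio of 24 to 2 months runs from 1.41 to -1.41, the ratio of the 24-month replicates runs the other way, that of the 2-month replicates stays between -0.11 and 0.02, and with the length offset the ratio stays between -0.06 and 0.06.

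Each gene was therefore tested by edgeR's quasi-likelihood test in 2 fits, one scaled by TMM alone and one with an added offset that sets each library's trend on transcript length to 0. By TMM, 2214 genes were higher at 24 months (13.5% of those tested) and 2471 lower (15.1%). With the offset, 1437 of 16215 genes with a known length were higher (8.86%) and 937 lower (5.78%). A gene was said to rise or fall only where both fits called it in the same direction at a Benjamini-Hochberg adjusted p under 0.05. In all, 768 genes rose (4.74%) and 743 fell (4.58%), so 1446 of the higher and 1728 of the lower TMM calls did not hold against genes of similar length. Of the risen genes 331 and of the fallen genes 250 changed at least 4-fold in the offset fit. Fold changes below are log2 values of 24 against 2 months from the offset fit, with their standard error (SE) and adjusted p, unless TMM is named.

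These counts depended on which libraries were used. Without replicate 1 or 2 at 2 months, 149 and 207 genes rose and 150 and 221 fell, whereas without replicate 1 or 2 at 24 months 1095 and 2353 rose and 1447 and 3002 fell. With 1 library left in a group, the spread comes from the other pair alone, and the 24-month pair was the wider. Through all 4 of these leave-outs, 111 genes rose (0.685%) and 136 fell (0.839%), and such genes are called stable below. For other genes and for lists, "leave-outs" gives the larger of the 2 adjusted p-values, or the number of members called, without 2-month replicate 1, 2-month replicate 2, 24-month replicate 1 and 24-month replicate 2, in that order. With the median in place of the longest transcript length, 1538 genes rose and 1691 fell. Total-count scaling ended the calls of these genes named below: Akr1c14, Rgs2, Prkar2b, Bdh1, Oxct2a, Tm7sf2, Mvk, Npc1, Aldoc, Cox6c, Ndufb8, Rps20, Rpl18, Psmb7, Bcl2l11, Foxo6, Sirt2, Irgm1, Per2, Per3, Mki67, Egfl7, Acta2, Pi16, Mfap5, Dcn, Tssk1 and Acrv1. Upper quartile scaling ended those of Akr1c14, Foxo4 and Pi16, limma-voom those of Cenpe, Egfl7, Acta2 and Pi16, DESeq2 that of Acta2, and length with GC content that of Per2.

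Of the 768 risen genes, 389 (50.7%) were detected in the tumour line, at 1 CPM or more in all 3 DMSO libraries, and of the 743 fallen genes 558 (75.1%) were, against 68.2% of all genes tested. The line holds Leydig tumour cells only, so a gene detected there can be transcribed by a Leydig cell without other testis cells. A gene not detected there may still be a gene of mature Leydig cells: Hsd17b3, the last enzyme of testosterone synthesis, was at 0.0130 CPM (mean of 3) in the line and at 1076 and 864 against 898 and 1048 CPM in the primary cells.

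**Figure D2:**
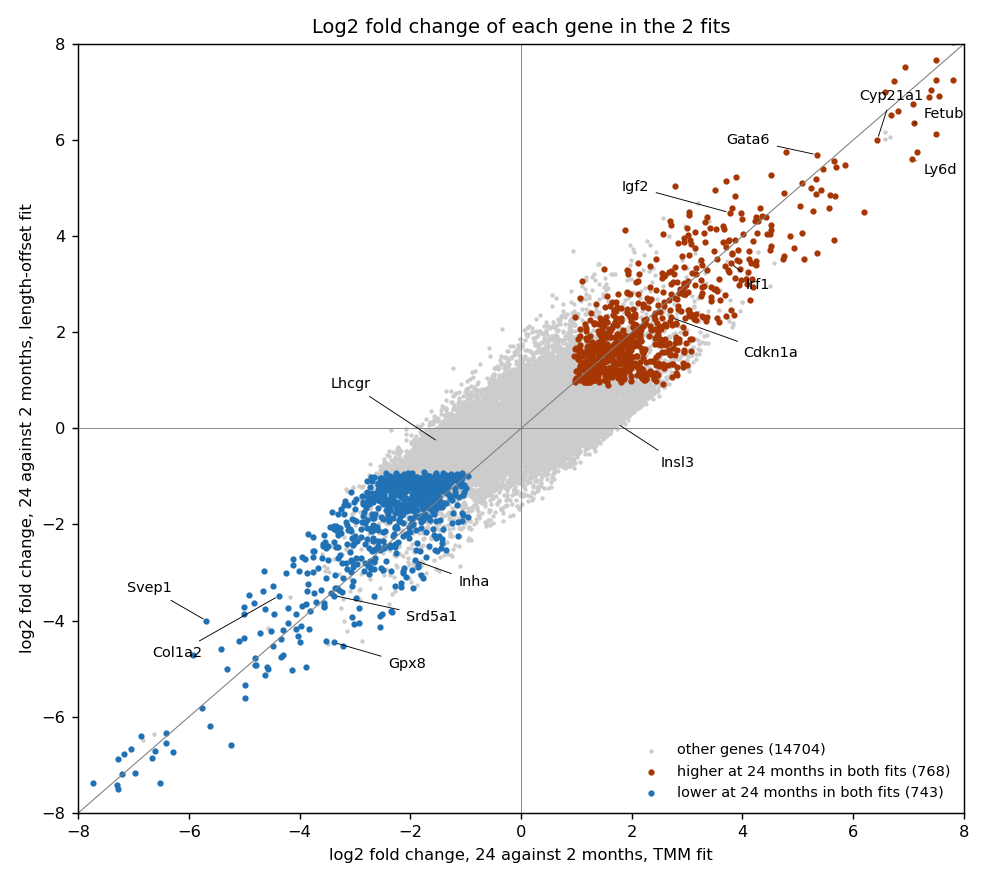
Log2 fold change of each gene in the TMM fit (horizontal axis) and in the length-offset fit (vertical axis). Red and blue points are the 768 risen and 743 fallen genes, the diagonal marks equal values, and 20 genes lie outside the axes; Lhcgr and Insl3 lie far from 0 only on the TMM axis.

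The core enzymes of testosterone synthesis did not change past the threshold. Cyp11a1, which cuts the cholesterol side chain, stood at 3922 and 3412 against 3794 and 2480.4 CPM (log2 0.04, SE 0.33, adjusted p = 0.953). Cyp17a1, needed for androgens, stood at 6501 and 5804 against 5918 and 4457 CPM (log2 -0.46, SE 0.31, adjusted p = 0.326). Levels of both overlapped between the ages. Star, with both old libraries below both young ones, stood at 2526 and 1846 against 1429.8 and 1541 CPM (log2 -0.09, SE 0.31, adjusted p = 0.879). Hsd3b6, the adult Leydig isoform of its family, stood the other way round at 3159 and 2737 against 5319.8 and 3371 CPM (log2 -0.04, SE 0.31, adjusted p = 0.946). For Hsd17b3, whose CPM also overlapped, the values were log2 -0.91, SE 0.33, adjusted p = 0.0694 with the offset and log2 0.00, adjusted p = 0.992 by TMM. Of 18 tested genes of steroid hormone synthesis, 1 rose and 2 fell, against 4.74% risen and 4.58% fallen over all genes. The list median log2 was 0.11 by TMM and -0.07 with the offset, against -0.01 and -0.00 over all genes tested.

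The changed members act after testosterone or on oestrogen. Srd5a1 (chromosome 13, 69573449 to 69611485), the 5-alpha-reductase that converts testosterone into more reduced androgens, stood at 109 and 124 against 10.4 and 11.9 CPM. Both 24-month libraries lay far below both 2-month libraries, and the gene fell in a stable way (log2 -3.48, SE 0.33, adjusted p = 4.6e-06). Akr1c14, a 3-alpha-hydroxysteroid dehydrogenase, stood at 33.9 and 32.8 against 4.67 and 16.2 CPM and fell (log2 -1.56, SE 0.43, adjusted p = 0.0298; leave-outs 0.11, 0.0738, 0.00257 and 1.92e-05). Sult1e1, which sulphates oestrogens, stood at 285 and 222 against 1307 and 1502 CPM and rose (log2 1.52, SE 0.33, adjusted p = 0.00655; leave-outs 0.0749, 0.194, 2.1e-05 and 0.000453). Tspo, of the outer mitochondrial membrane, and the P450 partner Cyb5a were higher by TMM only (Tspo log2 2.02, adjusted p = 0.0133; Cyb5a log2 1.45, adjusted p = 0.0178), and with the offset stood at 0.62 and 0.40.

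Of 7 adrenal-type steroid genes 4 passed the count filter, and 3 of these rose, against 4.74% of all genes. Cyp21a1 (chromosome 17, 34801348 to 34804426), the adrenal 21-hydroxylase, stood at 7.44 and 5.22 against 693 and 403 CPM. Both old libraries lay far above both young ones, and the gene rose in a stable way (log2 6.01, SE 0.41, adjusted p = 1.36e-07). Reads of Cyp21a1 can be split with a near-identical pseudogene copy, so its level is uncertain. Nr0b1, a repressor of steroidogenic transcription, also rose (7.40 and 5.77 against 26.1 and 46.4 CPM; log2 1.92, SE 0.38, adjusted p = 0.00364; leave-outs 0.0301, 0.0787, 3.69e-05 and 0.000197), as did Akr1b7, an aldose reductase of the adrenal cortex (3.19 and 3.60 against 22.01 and 17.7 CPM; log2 1.59, SE 0.36, adjusted p = 0.00785; leave-outs 0.202, 0.126, 0.000398 and 7.54e-05). Cyp21a1 was not detected in the tumour line (0.107 CPM).

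Receptors, hormones and transcription factors of Leydig cells went separate ways. Gata6, a transcription factor of steroid-making cells, stood at 1.59 and 1.58 against 55.5 and 73.7 CPM, with both old libraries above both young ones, and rose in a stable way (log2 5.70, SE 0.37, adjusted p = 1.1e-07). In the tumour line it was at 74.1 CPM. Agt, the precursor of angiotensin, stood at 3125 and 2748 against 20700.2 and 12017 CPM and rose (log2 1.93, SE 0.33, adjusted p = 0.00108; leave-outs 0.112, 0.104, 5.94e-05 and 8.54e-06). Ptgds, which makes prostaglandin D2, stood at 1879.9 and 1524 against 17840.1 and 6897 CPM and rose (log2 1.86, SE 0.36, adjusted p = 0.00299; leave-outs 0.0577, 0.06, 0.000643 and 6.54e-06); it was not detected in the line. Inha (chromosome 1, 75507077 to 75510366), the alpha subunit of inhibin, stood at 435 and 404 against 131 and 90.5 CPM and fell (log2 -2.75, SE 0.32, adjusted p = 4.26e-05; leave-outs 0.0654, 0.036, 4.05e-05 and 5.87e-05).

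For 2 well-known Leydig genes the fits disagreed. Lhcgr, with a longest transcript of 6828 nucleotides, stood at 746 and 603 against 207 and 272 CPM, lower by TMM (log2 -1.49, adjusted p = 0.0163) and not with the offset (log2 -0.28, SE 0.30, adjusted p = 0.568). Insl3, a Leydig cell hormone with a transcript of 623 nucleotides, stood at 1109 and 993 against 5164 and 1829 CPM, higher by TMM (log2 1.73, adjusted p = 0.0285) and not with the offset (log2 0.10, SE 0.33, adjusted p = 0.871). Both ages separated in CPM for each gene, and against genes of similar length neither differed past the threshold. Insl3 lies within the bounds of Jak3, and the strand setting of the counting is not given in the sources used here. Esr1, an oestrogen receptor, was likewise lower by TMM only. Nr5a1, the master regulator of steroidogenic genes, stood at 869 and 666 against 807 and 443 CPM (log2 -0.23, SE 0.35, adjusted p = 0.707).

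**Figure D3:**
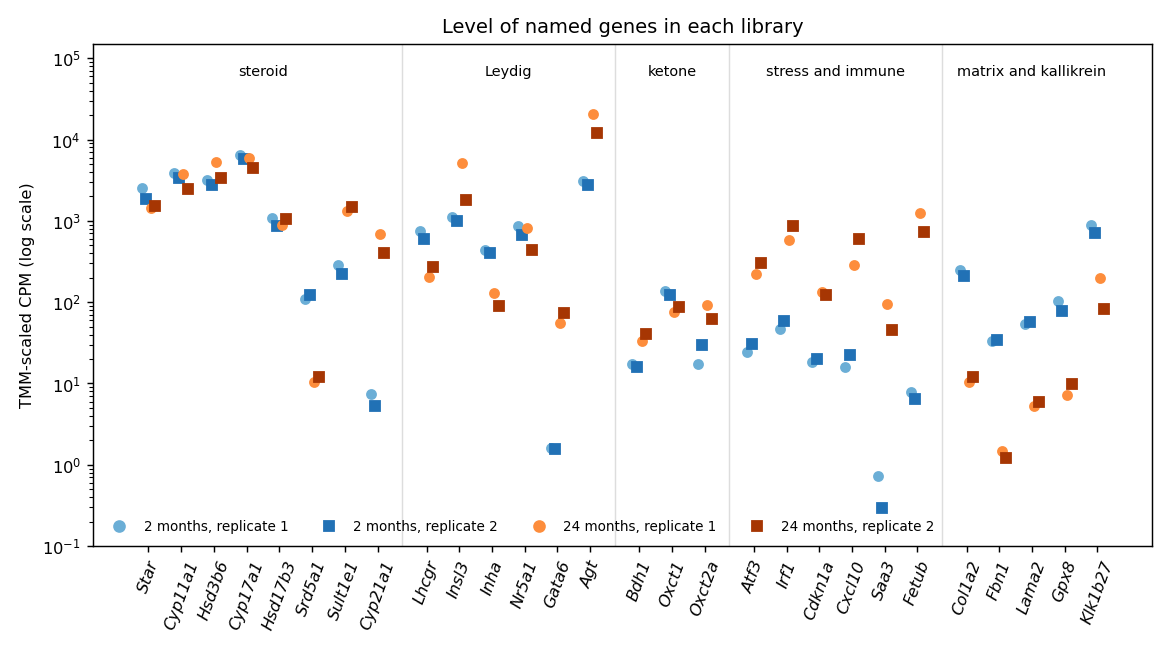
TMM-scaled CPM (vertical axis, log scale) of 28 genes in each of the 4 libraries, blue for 2 months and orange or brown for 24 months, circles for replicate 1 and squares for replicate 2. The ages overlap for Cyp11a1 and Cyp17a1 and stand apart for Srd5a1, Cyp21a1, Gata6 and Saa3.

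Of 19 tested genes of luteinising hormone and cyclic AMP signalling, 1 rose and 4 fell (leave-outs 1, 1, 6 and 6 lower). Adcy6, an adenylyl cyclase, stood at 62.6 and 51.5 against 6.43 and 5.47 CPM and fell in a stable way (log2 -2.17, SE 0.35, adjusted p = 0.00066). Pde4d, a phosphodiesterase that degrades cyclic AMP, fell (log2 -1.57, SE 0.46, adjusted p = 0.0298; leave-outs 0.406, 0.134, 0.000951 and 0.0201), as did the protein kinase A subunit Prkar2b (log2 -0.95, SE 0.30, adjusted p = 0.0428; leave-outs 0.554, 0.327, 0.00738 and 0.000338) and the cyclase Adcy9. Rgs2, which dampens G protein signals, stood at 66.1 and 67.2 against 142 and 188 CPM and rose (log2 1.37, SE 0.31, adjusted p = 0.00791; leave-outs 0.278, 0.227, 0.000156 and 0.000534). Over all genes 4.74% rose and 4.58% fell. With the median transcript length Prkar2b lost its call. Adcy6, Pde4d and Rgs2 were under 1 CPM in the tumour line.

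Of 14 tested genes of ketone body metabolism 2 rose, against 4.74% of all genes. Bdh1, which interconverts acetoacetate and beta-hydroxybutyrate, stood at 17.5 and 15.9 against 33.7 and 41.1 CPM and rose (log2 1.29, SE 0.31, adjusted p = 0.011; leave-outs 0.288, 0.308, 0.000671 and 0.00233).

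On the side of use, Oxct1, with both old libraries below both young ones, stood at 136 and 122 against 74.98 and 86.9 CPM and was not called (log2 -0.40, SE 0.30, adjusted p = 0.4). Oxct2a, a form of the same enzyme known from male germ cells, stood at 17.5 and 29.8 against 93.2 and 62.9 CPM and rose (log2 1.10, SE 0.33, adjusted p = 0.0336; leave-outs 0.662, 0.147, 0.026 and 0.00484). Its near-identical copy Oxct2b was higher by TMM only (log2 1.54, adjusted p = 0.0214), so the split between the copies is uncertain. Summed spermatid markers, given further on, were also higher at 24 months, and their part in the level of Oxct2a was not tested. The cytosolic synthase Hmgcs1 (log2 -0.40, SE 0.33, adjusted p = 0.442), Acat1 (log2 0.45, SE 0.30, adjusted p = 0.332) and Aacs (log2 0.35, SE 0.30, adjusted p = 0.463) did not pass. Bdh2 (log2 1.55, SE 0.50, adjusted p = 0.0475) and the carrier Slc16a7 (log2 1.79, SE 0.34, adjusted p = 0.00265) were higher with the offset only, and Slc16a1, Slc16a3 and Slc16a6 passed in neither fit. The number of risen members changed with the libraries used (leave-outs 0, 0, 2 and 4 higher), and the list median log2 was 0.16 by TMM and 0.40 with the offset.

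Lipid and glycolysis lists held a few calls, against 4.74% risen and 4.58% fallen over all genes. The share risen in glycolysis, given last, is near that and says nothing about the list as a whole. In cholesterol synthesis 3 of 24 rose, the prenyl synthase Fdps (406 and 353 against 1588 and 865 CPM; log2 1.74, SE 0.35, adjusted p = 0.0042; leave-outs 0.179, 0.198, 0.000537 and 1.68e-05), Tm7sf2 and Mvk (leave-outs 0, 0, 4 and 7 higher). Of 14 genes of cholesterol uptake and storage 2 fell, the lipid droplet protein Plin4 (log2 -1.49, SE 0.38, adjusted p = 0.0173) and the lysosomal exporter Npc1 (log2 -1.05, SE 0.33, adjusted p = 0.0414), with leave-outs 0, 0, 3 and 4. In fatty acid oxidation 2 of 23 fell (leave-outs 1, 1, 2 and 6). Ppara, the nuclear receptor that drives fatty acid oxidation in liver, stood at 121 and 95.6 against 20.4 and 24.6 CPM, with no overlap, and fell in a stable way (log2 -2.04, SE 0.32, adjusted p = 0.0005). Cpt1a, which admits fatty acids to mitochondria, stood at 564 and 466 against 132 and 187 CPM and fell (log2 -1.14, SE 0.31, adjusted p = 0.0204; leave-outs 0.444, 0.185, 0.00439 and 0.000403). In glycolysis 1 of 18 rose, the aldolase Aldoc (log2 1.01, SE 0.31, adjusted p = 0.0363; leave-outs 0.368, 0.495, 0.00189 and 0.000869). With the median transcript length Tm7sf2, Mvk and Aldoc lost their calls.

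Immediate early genes, the fast transcriptional answer to growth factors and stress, rose in 12 of 26 cases (leave-outs 3, 3, 20 and 13; list median log2 1.25 by TMM and 1.10 with the offset). The share risen over all genes was 4.74%. Atf3, a stress-induced factor, stood at 24.2 and 30.2 against 221 and 303 CPM and rose in a stable way (log2 2.82, SE 0.34, adjusted p = 6.52e-05). Ier3 stood at 45.3 and 50.98 against 498 and 487 CPM (log2 2.31, SE 0.33, adjusted p = 0.000227), and Egr2 at 3.72 and 6.36 against 45.6 and 118 CPM (log2 4.04, SE 0.45, adjusted p = 7.74e-05); both rose in a stable way. Both old libraries lay above both young ones for each, and for Atf3 and Egr2 replicate 2 was the higher of the old pair.

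Feedback genes of the NF-kB pathway rose in 3 of 15 cases (leave-outs 2, 2, 5 and 6; list median log2 0.63 by TMM and 0.86 with the offset). Of all genes 4.74% rose. Nfkbia, which holds NF-kB in the cytoplasm, stood at 34.1 and 40.6 against 310.5 and 492 CPM and rose in a stable way (log2 2.74, SE 0.37, adjusted p = 0.000183). Tnfaip3, a ubiquitin-editing inhibitor of the same pathway, stood at 2.41 and 5.44 against 26.4 and 88.1 CPM and rose in a stable way (log2 4.84, SE 0.52, adjusted p = 0.000146). Arid5a, which stabilises the messenger RNA of Il6, stood at 1.88 and 1.66 against 52.02 and 46.02 CPM, with no overlap, and rose in a stable way (log2 5.76, SE 0.40, adjusted p = 1.36e-07). Socs1 (log2 4.31), a brake on cytokine signals, and the kinase Pim1 (3.29) did so too. Nfkb1 was lower by TMM only.

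Of 23 cell cycle inhibitors and secreted senescence factors 10 rose and 1 fell (leave-outs 7, 7, 11 and 9 higher; list median log2 1.85 by TMM and 0.83 with the offset). The shares over all genes, for this list and the p53 targets below, were 4.74% risen and 4.58% fallen. Cdkn1a, the p21 inhibitor of cyclin-dependent kinases, stood at 18.5 and 20.2 against 132 and 121 CPM and rose in a stable way (log2 2.31, SE 0.31, adjusted p = 0.000183). Cxcl10, a chemokine, stood at 15.9 and 22.5 against 285 and 595 CPM (log2 4.23, SE 0.42, adjusted p = 1.74e-05), and Ccl2, which draws monocytes, at 0.532 and 0.956 against 27.03 and 44.6 CPM (log2 4.58, SE 0.49, adjusted p = 3.8e-05); both rose in a stable way. Il6 had 0 counts at 2 months and 36 and 147 counts at 24 months, at least 71.1-fold higher when 0 is taken as 3 counts over the group. Il6, Cxcl2 and Ccl7 are among the 10 and passed the count filter only through the 24-month libraries. Vegfa, the vessel growth factor, stood at 82.5 and 77.2 against 10.6 and 16.004 CPM and fell in a stable way (log2 -2.35, SE 0.32, adjusted p = 0.000183). Among p53 targets 6 of 20 rose (leave-outs 2, 2, 8 and 7; list median log2 0.84 by TMM and 0.91 with the offset), with Plk2 stable (log2 2.83, SE 0.38, adjusted p = 0.00021) and Gadd45b of the same damage-response family, though not on the list, also stable (log2 3.12, SE 0.33, adjusted p = 1.32e-05).

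Promoters of risen genes of the NF-kB and senescence lists are shown as sequence beside their levels. Both the genes and the search were chosen after the values were seen, and the lists hold known NF-kB targets, so the share of these genes with the motif is no evidence of a cause. The motif searched was GGGNNNTTCC on both strands, so that its reverse complement GGAANNNCCC counts too, and the 2 forms can overlap in 1 place. Among 11 such genes with a promoter in the RefSeq table (GRCm38.p6), 6 held it in the 250 bases before the start (Nfkbia, Tnfaip3, Cxcl10, Cxcl1, Cxcl2 and Il6). The motif was in 4.65% of all 32851 promoters, and in 5.04% of those of tested genes, 7.27% of risen genes and 4.91% of fallen genes. Below are 4 of these 6, 5′ to 3′ on the strand of the gene up to the start, with matches in capitals: Nfkbia (chr12:55492648-55492897, minus strand), Tnfaip3 (chr10:19015411-19015660, minus strand), Cxcl10 (chr5:92348890-92349139, minus strand) and Cxcl1 (chr5:90890995-90891244, plus strand).
Nfkbia: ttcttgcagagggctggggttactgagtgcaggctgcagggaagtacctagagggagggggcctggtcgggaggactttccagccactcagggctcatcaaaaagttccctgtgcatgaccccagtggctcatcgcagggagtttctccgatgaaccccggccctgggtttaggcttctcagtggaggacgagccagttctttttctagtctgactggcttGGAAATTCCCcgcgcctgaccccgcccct
Tnfaip3: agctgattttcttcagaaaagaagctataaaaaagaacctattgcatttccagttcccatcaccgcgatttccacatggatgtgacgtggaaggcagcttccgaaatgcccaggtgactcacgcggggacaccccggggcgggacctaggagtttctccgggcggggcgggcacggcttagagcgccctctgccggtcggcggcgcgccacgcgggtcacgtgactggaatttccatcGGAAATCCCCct
Cxcl10: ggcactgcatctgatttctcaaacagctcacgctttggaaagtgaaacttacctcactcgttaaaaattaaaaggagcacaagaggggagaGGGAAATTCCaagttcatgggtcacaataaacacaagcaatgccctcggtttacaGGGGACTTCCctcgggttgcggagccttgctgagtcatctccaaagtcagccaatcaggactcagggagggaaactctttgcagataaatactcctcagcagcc
Cxcl1: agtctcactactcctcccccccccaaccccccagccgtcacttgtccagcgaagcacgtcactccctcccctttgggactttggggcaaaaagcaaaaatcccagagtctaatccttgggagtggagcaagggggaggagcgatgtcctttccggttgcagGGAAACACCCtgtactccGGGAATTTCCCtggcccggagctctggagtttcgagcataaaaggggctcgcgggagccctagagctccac
The match farthest from the start began 29 bases before it in Nfkbia, 12 in Tnfaip3, 159 in Cxcl10 and 89 in Cxcl1. A match is a description of these letters, not a measured binding site.

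Of 30 interferon response genes 10 rose and 2 fell (leave-outs 2, 2, 10 and 12 higher; leave-outs 0, 1, 2 and 3 lower; list median log2 1.08 by TMM and 0.93 with the offset). Of all genes 4.74% rose and 4.58% fell. Irf1, a transcription factor of the response, stood at 46.3 and 58.1 against 584 and 858 CPM and rose in a stable way (log2 3.44, SE 0.36, adjusted p = 1.27e-05). Gbp2, a guanylate-binding protein, stood at 2.98 and 3.27 against 17.3 and 31.2 CPM and did so too (log2 2.80, SE 0.40, adjusted p = 0.000234). Irgm1, Mx2, Rsad2, Iigp1, Igtp, Ifit2, Ifit1 and Zbp1 rose without being stable. Trim25 (log2 -1.38, SE 0.31, adjusted p = 0.00782; leave-outs 0.257, 0.0967, 7.17e-05 and 1.29e-05) and the RNA sensor Ddx58 (log2 -1.56, SE 0.32, adjusted p = 0.00433; leave-outs 0.166, 0.0483, 0.000207 and 6.14e-05) fell, and Isg15 was higher by TMM only (log2 2.37, adjusted p = 0.00643).

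Several antigen presentation genes rose, while over all genes 4.74% did. In MHC class I presentation 5 of 14 rose (leave-outs 2, 0, 6 and 8; list median log2 1.28 by TMM and 0.94 with the offset), among them the immunoproteasome subunit Psmb9 (8.95 and 6.44 against 44.8 and 29.02 CPM; log2 2.27, SE 0.36, adjusted p = 0.000607; leave-outs 0.0247, 0.0523, 0.000437 and 2.8e-05) and H2-D1 (37.6 and 35.8 against 247 and 119 CPM; log2 1.91, SE 0.35, adjusted p = 0.00224; leave-outs 0.0559, 0.0589, 9.35e-05 and 8.14e-06). B2m, a short transcript of 860 nucleotides, was higher by TMM only (log2 1.52, adjusted p = 0.0137). In MHC class II presentation 4 of 8 rose (leave-outs 3, 2, 5 and 6; list median log2 2.68 by TMM and 1.75 with the offset), with Cd74 (0.859 and 0.736 against 14.97 and 10.2 CPM; log2 3.10, SE 0.45, adjusted p = 0.000283) stable. H2-Aa, also among the 4, stood at 0.327 and 0.368 against 4.81 and 4.64 CPM. It passed the count filter only through the old libraries, so it is described by its levels. Class II genes mark antigen-presenting cells. Cd74 and H2-Aa were at 0 CPM in the tumour line, and the list summed to 7.38 and 7.73 against 51.1 and 35.7 CPM. The macrophage markers that moved beside them are given below, and their part in these rises was not tested.

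Secreted proteins of the acute-phase and liver type rose in 8 of 14 cases (leave-outs 4, 3, 9 and 10; list median log2 2.36 by TMM and 1.73 with the offset). The share risen over all genes was 4.74%. Saa3, a serum amyloid of inflamed tissue, stood at 0.736 and 0.294 against 94.2 and 45.03 CPM. It is among the 8 and passed the count filter only through the 24-month libraries, so it is described by its levels. Serpina3n, a protease inhibitor, stood at 40.5 and 34.4 against 721 and 576 CPM (log2 3.70, SE 0.34, adjusted p = 3.45e-06), and complement C4b at 28.9 and 29.6 against 298 and 219 CPM (log2 4.10, SE 0.38, adjusted p = 4.28e-06); both were stable, and both have near-identical copies that leave their levels uncertain. Fetub (chromosome 16, 22918382 to 22939768), a liver-type protease inhibitor that was not on the list, stood at 7.93 and 6.47 against 1262 and 719.9 CPM, and Ly6d, a small surface protein, at 3.68 and 3.79 against 705 and 300.2 CPM. Both old libraries were far above both young ones for each, and both genes rose in a stable way (Fetub log2 6.35, SE 0.40, adjusted p = 8.59e-08; Ly6d log2 5.60, SE 0.39, adjusted p = 1.36e-07). Lcn2, abundant at both ages (3784 and 3144 against 17965 and 8138 CPM), was higher by TMM only (log2 1.91, adjusted p = 0.017).

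Among the largest rises of genes that the tumour line also transcribes, Igf2, the imprinted fetal growth factor, stood at 67.6 and 53.99 against 845 and 813 CPM and rose in a stable way (log2 4.49, SE 0.36, adjusted p = 6.75e-07). The long noncoding RNA Snhg11 stood at 62.6 and 49.2 against 401 and 499.6 CPM and was stable (log2 4.03, SE 0.35, adjusted p = 1.61e-06). Bhlhe41 (log2 3.20, SE 0.35, adjusted p = 1.74e-05; leave-outs 0.0478, 0.0588, 0.000102 and 0.000196) and the stable Bhlhe40 (log2 2.56, SE 0.34, adjusted p = 0.000139), repressors within the circadian clock, rose, while the clock genes Per2 (log2 -1.44, SE 0.42, adjusted p = 0.0324; leave-outs 0.248, 0.0613, 0.00584 and 1.08e-05) and Per3 (log2 -1.06, SE 0.34, adjusted p = 0.0482; leave-outs 0.466, 0.262, 0.0414 and 1.32e-05) fell. Clock was lower by TMM only.

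Ribosomal protein, oxidative phosphorylation and proteasome genes lost most of their TMM calls with the offset. Over all genes 13.5% were higher by TMM and 4.74% rose in both fits. Cytosolic ribosomal proteins, with a median transcript of 1100 nucleotides, were higher by TMM in 38 of 52 cases and rose in 5 (leave-outs 0, 0, 4 and 13), the list median passing from 1.34 to 0.18. Rpl38 stood at 110.3 and 87.7 against 411 and 199.96 CPM, a TMM value of log2 1.63, adjusted p = 0.0213 and an offset value of log2 -0.06, SE 0.31, adjusted p = 0.917. Of the 5, Rps20 and Rpl18 were assigned longest transcripts of 3706 and 2989 nucleotides, and both lost their call with the median length. Nuclear subunits of oxidative phosphorylation were higher in 25 of 44 cases by TMM and rose in 2, Cox6c and Ndufb8, which also lost their calls with the median length (leave-outs 0, 0, 5 and 14), with a list median of 1.11 and then 0.16. Proteasome subunits passed from 7 to 1 of 31, Psmb7, and the 2 higher and 1 lower TMM calls among 29 lysosome and autophagy genes did not hold.

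**Figure D4:**
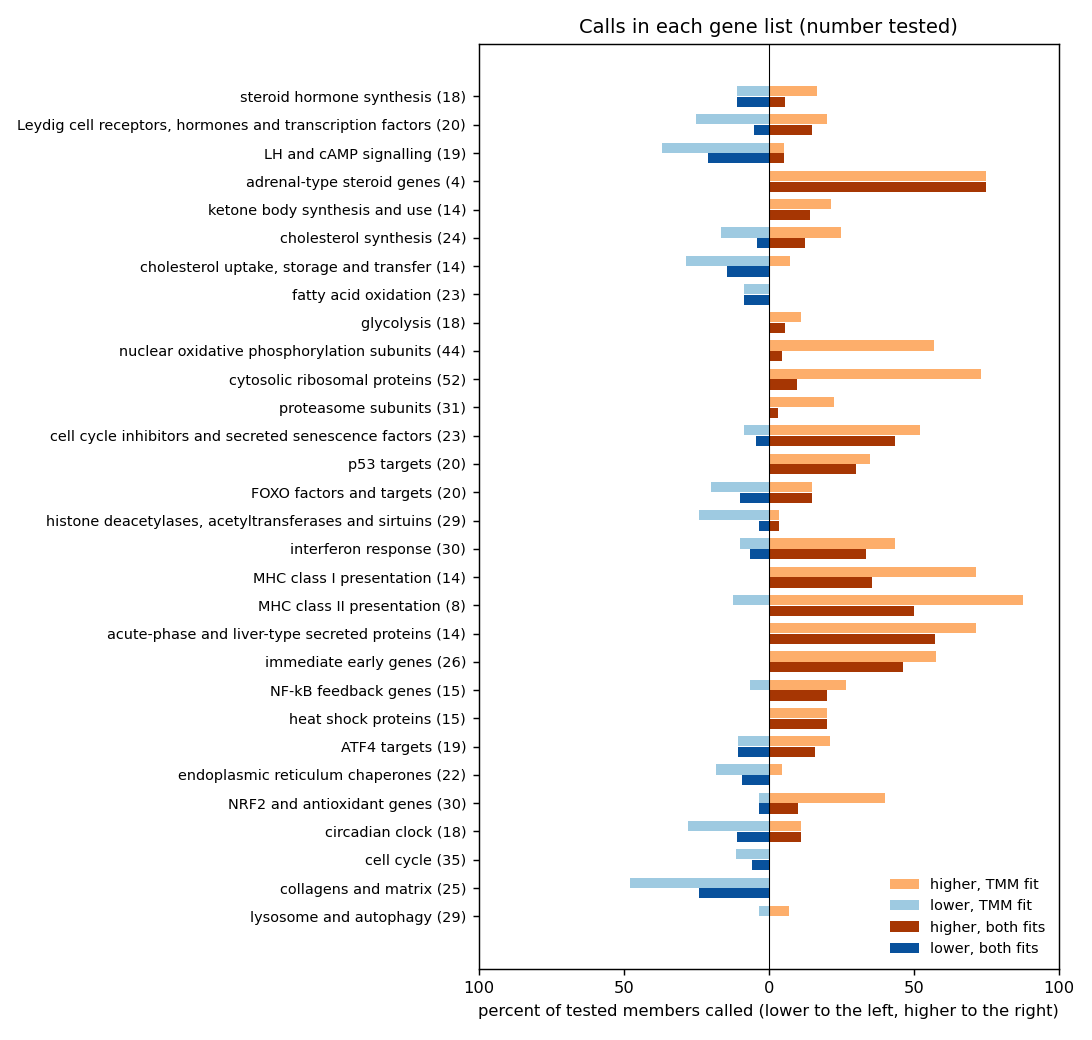
Share of tested members of each gene list (horizontal axis, percent) called higher (right) or lower (left) by the TMM fit (pale bars) and by both fits (dark bars). Bars of ribosomal proteins and oxidative phosphorylation shrink from 38 to 5 and from 25 to 2 genes, while those of immediate early and acute-phase genes pass from 15 to 12 and from 10 to 8.

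Part of the collagens and matrix genes fell. Over all genes 15.1% were lower by TMM and 4.58% fell in both fits. By TMM 12 of 25 were lower, and 6 fell in both fits (leave-outs 4, 5, 11 and 9; list median log2 -1.27 by TMM and -0.24 with the offset). Col1a2 (chromosome 6, 4505618 to 4541543), a chain of type I collagen, stood at 251 and 213 against 10.3 and 11.9 CPM, with no overlap, and fell in a stable way (log2 -3.49, SE 0.34, adjusted p = 5.67e-06). Fbn1, the microfibril protein, stood at 33.7 and 33.8 against 1.49 and 1.20 CPM (log2 -2.96, SE 0.42, adjusted p = 0.000234), and the laminin chain Lama2 at 54.6 and 56.5 against 5.35 and 5.85 CPM (log2 -1.78, SE 0.33, adjusted p = 0.00234); both were stable, as was Col18a1. Hspg2 and Fn1, with longer transcripts than most, were lower by TMM only.

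Further genes that fell were named for the size of their change at a mean log2 CPM of 3 or more. Svep1, a matrix adhesion protein, stood at 77.8 and 64.3 against 1.63 and 1.16 CPM and fell in a stable way (log2 -4.00, SE 0.42, adjusted p = 2.16e-05). Gpx8, a peroxidase of the endoplasmic reticulum, stood at 103 and 77.7 against 7.32 and 9.95 CPM and fell in a stable way, although its transcript is short, at 1042 nucleotides (log2 -4.46, SE 0.40, adjusted p = 4.6e-06). Sparcl1, a matrix-binding protein, stood at 1169.99 and 988 against 139 and 205 CPM (log2 -2.70, SE 0.33, adjusted p = 6.9e-05), and Itih5, of the hyaluronan-binding inhibitor family, at 239.5 and 208 against 9.21 and 19.4 CPM (log2 -2.68, SE 0.33, adjusted p = 7.3e-05); both were stable. Svep1, Gpx8, Col1a2, Sparcl1 and Itih5 were not detected in the tumour line.

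Among the largest falls were kallikreins, serine proteases that Leydig cells of the mouse are known to express. Klk1b27 stood at 883 and 718 against 199.5 and 81.4 CPM (log2 -3.87, SE 0.37, adjusted p = 4.6e-06) and Klk1b22 at 195 and 159 against 40.9 and 19.9 CPM (log2 -3.91, SE 0.36, adjusted p = 3.33e-06), both stable. Klk1b21 (1151 and 984 against 380.4 and 172 CPM; leave-outs 0.093, 0.0393, 2.69e-05 and 0.000136) and Klk1b24 (1049 and 805 against 357 and 186 CPM; leave-outs 0.158, 0.0522, 6.38e-05 and 0.000337) fell too. Other genes of the family did not fall, such as Klk1b16 and Klk1b9, and the family was not tested as a group. These genes are close copies of each other on chromosome 7, and how reads were split among them is not known. Igfbp2, a binding protein of insulin-like growth factors, stood at 489.6 and 408 against 144 and 85.6 CPM and fell (log2 -2.94, SE 0.33, adjusted p = 3.01e-05; leave-outs 0.0716, 0.0264, 3.69e-05 and 8.4e-05). Of other falls of genes present in the line, Prrt2 (log2 -3.80, SE 0.52, adjusted p = 0.001), the actin-binding Synpo (log2 -3.75, SE 0.44, adjusted p = 7.55e-05), the exchange factor Arhgef25 (log2 -3.70, SE 0.35, adjusted p = 4.28e-06) and the pseudokinase Trib2 (log2 -3.38, SE 0.37, adjusted p = 2.16e-05) were stable.

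Further lists on ageing and stress held a few calls, against 4.74% risen and 4.58% fallen over all genes. The shares called in the histone enzyme and cell cycle lists, given below, were near those and say nothing about either list as a whole. Of 20 FOXO factors and targets 3 rose, Bcl2l11, Foxo6 and Gadd45a, and 2 fell. The falls were the ubiquitin ligase Trim63, stable (8.83 and 9.49 against 1.63 and 0.746 CPM; log2 -3.52, SE 0.50, adjusted p = 0.000234), and Foxo4 (log2 -0.94, SE 0.30, adjusted p = 0.0459; leave-outs 0.609, 0.293, 0.00127 and 0.00333), and Foxo1 was lower by TMM only. Histone deacetylases, acetyltransferases and sirtuins were lower in 7 of 29 cases by TMM but fell in 1, Kat6a (log2 -1.17, SE 0.31, adjusted p = 0.0195; leave-outs 0.422, 0.177, 0.00119 and 4.01e-05), and rose in 1, Sirt2 (69.8 and 71.5 against 238 and 132 CPM; leave-outs 0.526, 0.405, 0.0669 and 3.25e-05). Heat shock proteins rose in 3 of 15, with the small chaperone Cryab stable (8.79 and 8.16 against 107 and 65.6 CPM; log2 2.24, SE 0.32, adjusted p = 0.00023). Endoplasmic reticulum chaperones and sensors fell in 2 of 22, with the sensor Ern1 stable (108 and 106 against 6.84 and 17.2 CPM; log2 -2.01, SE 0.34, adjusted p = 0.000992). ATF4 targets held 3 rises and 2 falls of 19, with the serine synthesis enzyme Psat1 lower and stable (log2 -2.20, SE 0.37, adjusted p = 0.00115). NRF2 and antioxidant genes were higher in 12 of 30 by TMM and rose in 3, of which Gsta2 was stable (57.04 and 40.6 against 856 and 491 CPM; log2 2.45, SE 0.34, adjusted p = 0.000183), while Hmox1 fell (log2 -1.96, SE 0.33, adjusted p = 0.00106; leave-outs 0.309, 0.15, 0.000884 and 0.000223). Cell cycle genes fell in 2 of 35, Cenpe and Mki67, both of long transcripts (Mki67 log2 -2.05, SE 0.61, adjusted p = 0.0432; leave-outs 0.0197, 0.14, 0.00449 and 0.0001).

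Markers of other testis and blood cells are given as summed levels, scaled over all 10 libraries. For calls in these lists, here and below, the shares over all genes were 4.74% risen, 4.58% fallen and 13.5% higher by TMM. With 2 against 2 libraries an exact permutation test, two-sided, cannot go below p = 0.333, so these sums were not tested. Spermatid markers were the most abundant of them, at 2378 and 3292 against 12921 and 7080.4 CPM, against 8.06 to 8.67 CPM in the tumour line. By TMM 17 of 21 were higher, and 4 rose in both fits, Tssk1 (log2 1.87, SE 0.35, adjusted p = 0.00222; leave-outs 0.288, 0.0802, 0.0209 and 0.00475), Oaz3 (log2 1.65, SE 0.33, adjusted p = 0.00332; leave-outs 0.191, 0.0635, 0.00394 and 0.000649), Acrv1 and Tssk6 (leave-outs 0, 0, 5 and 10). The list's transcripts are short (median 1197 nucleotides), and adjusted for length the sums were 3646 and 4366 against 7105 and 5735 CPM. Prm3, a short transcript of 410 nucleotides made in late spermatids, stood at 16.3 and 20.1 against 172 and 59.04 CPM, TMM log2 2.67, adjusted p = 0.0102, and log2 0.92, SE 0.33, adjusted p = 0.0668 with the offset. Spermatocyte markers summed to 928 and 1481 against 2477 and 1966 CPM, and the 3 of 14 called higher by TMM did not hold.

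Macrophage markers summed to 239 and 238 against 331 and 307 CPM, and 4 of 17 rose (leave-outs 1, 1, 4 and 4 higher). Cd14, the endotoxin co-receptor, stood at 8.95 and 7.72 against 90.5 and 103 CPM and rose in a stable way (log2 2.86, SE 0.33, adjusted p = 3.95e-05). Lyz2 (log2 1.91, SE 0.40, adjusted p = 0.00488; leave-outs 0.054, 0.0892, 0.000103 and 0.000613), C1qa and C1qb rose. The receptors Adgre1 (0.580 and 0.951 against 0.397 and 0.248 CPM) and Csf1r (1.62 and 2.22 against 2.05 and 2.07 CPM), which define macrophages, were low at both ages and did not rise.

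Neutrophil markers were all but absent at 2 months. S100a9 had 0 counts there and 64 and 741 counts at 24 months, at least 313-fold higher over the group, and S100a8 had 0 against 15 and 509, at least 203-fold. Ngp, of neutrophil granules, had 0 against 49 and 581. Replicate 2 at 24 months held most of these counts, and the offset fit did not call S100a8, S100a9, Camp or Ngp. Elane had 0 against 11 and 105. Genes at 0 counts at 2 months passed the filter only through the 24-month libraries, so they are described by their counts. Ly6g and Cxcr2 had 0 counts in all 4 libraries. Summed, the list stood at 1.08 and 1.19 against 14.97 and 106 CPM. Of 4 tested lymphocyte markers 1 was called higher, Jchain, of antibody-secreting cells, with 7 and 18 against 134 and 660 counts. It passed the count filter only through the 24-month libraries, so it is described by its counts. Cd3e and Ms4a1 were at 1.19 CPM or less in each library. Of the 24-month pair, replicate 2 had more of these counts and the higher Cxcl10, Il6, Tnfaip3 and Egr2, whereas Socs1, Saa3, C4b and Serpina3n were higher in replicate 1. The part of neutrophils in these levels was not tested.

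Other cell types gave mixed values. Endothelial markers summed to 35.9 and 36.8 against 98.1 and 50.2 CPM, with 3 of 10 risen (leave-outs 0, 2, 2 and 5): Cldn5, with 2 counts at 2 months and 82 in all at 24 months, a ratio of 47.8 (95% exact interval 12.8 to 401, counting error only), Plvap (leave-outs 0.187, 0.192, 0.00727 and 1.89e-05) and Egfl7 (leave-outs 0.318, 0.321, 0.111 and 0.00169). Cdh5, the largest endothelial marker at 2 months, was lower at 24 months without a call (16.04 and 15.29 against 11.19 and 7.988 CPM). Plvap, the largest at 24 months, stood at 10.48 and 10.34 against 49.33 and 25.2 CPM, both scaled as the sums. In the tumour line the list summed to 115.28 to 118.23 CPM, above each primary library (Cdh5 74.3 to 79.87, Plvap 34.67 to 38.05). The part of endothelial cells in the primary sums was not tested. Smooth muscle markers summed to 193 and 184 against 267 and 254 CPM, and of 9 tested 2 were called higher, Rgs5 and Acta2. Rgs5 had 8 and 10 against 107 and 40 counts, and Acta2 5 and 12 against 56 and 28. Both passed the count filter only through the 24-month libraries, so they are described by their counts. By TMM only, Actg2 was higher and Notch3 lower (Notch3 14.2 and 8.80 against 2.45 and 1.57 CPM). Myh11, Tagln and Mylk overlapped between the ages. Fibroblast and progenitor markers went both ways. Among those called higher, Lum (2 and 9 against 40 and 20 counts) and Clec3b (8 and 18 against 75 and 79) passed the count filter only through the 24-month libraries. Ly6a (1.06 and 2.17 against 50.5 and 35.7 CPM; log2 3.52, SE 0.38, adjusted p = 2.02e-05, stable), Pi16, Mfap5, Lum and Clec3b rose (leave-outs 1, 2, 3 and 6 higher), while Pdgfra (208 and 206 against 29.7 and 61.6 CPM; log2 -1.03, SE 0.32, adjusted p = 0.0369; leave-outs 0.432, 0.344, 0.02 and 6.96e-05) and Dcn (log2 -1.06, SE 0.33, adjusted p = 0.042; leave-outs 0.428, 0.305, 0.0405 and 1.47e-05) fell. Of 10 Sertoli markers 1 fell, Aard (167 and 129 against 45.9 and 63.6 CPM; log2 -2.29, SE 0.36, adjusted p = 0.000654; leave-outs 0.24, 0.0856, 0.000761 and 0.000104). Their sum was 672 and 571 against 1331 and 709.6 CPM, most of it Defb19 (482 and 408 against 1255 and 616 CPM), which did not rise. Adjusted for length, the sum of the tested members ran the other way, at 1111 and 821 against 608 and 549 CPM. Mast cell and red blood cell markers summed to under 3 CPM in each library.

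**Figure D5:**
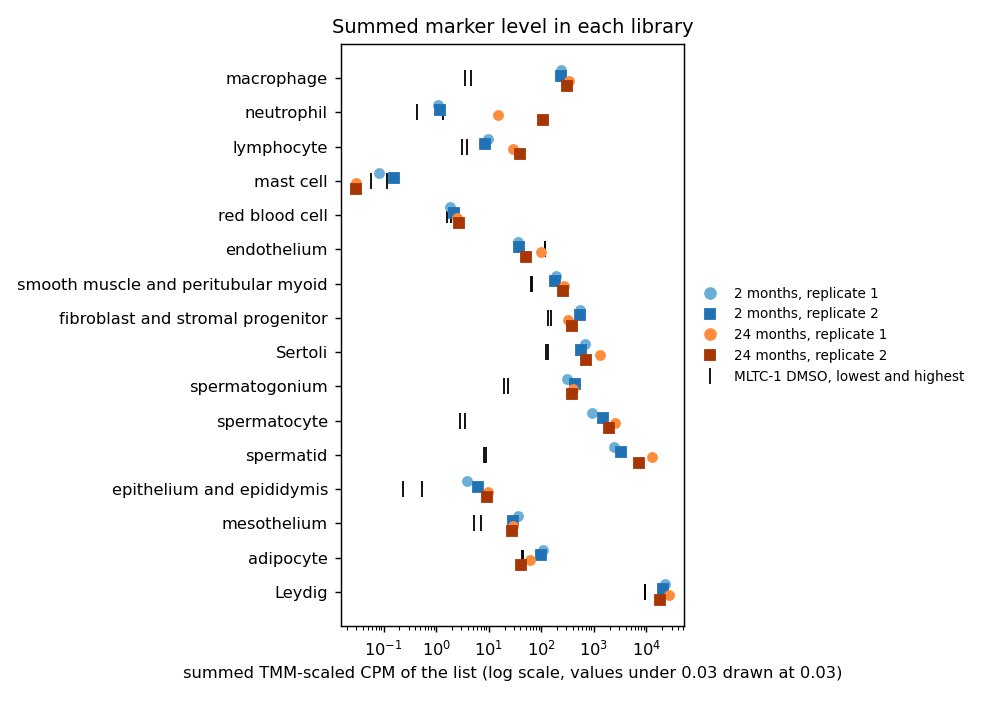
Summed TMM-scaled CPM of 16 marker lists (horizontal axis, log scale) in the 4 primary libraries (colours and symbols by age and replicate) and the lowest and highest MLTC-1 DMSO library (black bars). Leydig markers are the highest list in every library, spermatid markers are the next, and neutrophil markers lie well apart between the ages.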

How the data were processed

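RNA from primary Leydig cells of 2 ages (2 libraries each) was sequenced; the labels' protocols give an RNeasy kit for extraction and NEBNext Ultra for the libraries. The authors deposited raw counts of reads for each gene symbol. Per the submitters' processing notes, HISAT2 (2.2.1) and featureCounts (2.0.6) were used with the mm10 genome, and fastp (0.23.4) with FastQC (0.12.1) are also named. Here the annotation and strand setting of the counting are not stated in these sources.

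The filter was filterByExpr at a minimum count of 10 and a minimum total of 15. Counts were scaled by TMM and tested two-sided with edgeR's quasi-likelihood test (edgeR 4.0.16, limma 3.58.1, R 4.3.3) and Benjamini-Hochberg adjustment at 0.05. The second fit added, for each library, a loess trend (span 0.3) of log2 CPM (prior count 2) on the log2 length of the longest GENCODE M21 transcript, known for 16215 genes (99.0%), as an offset. The procedure was tested on simulated data. Summed list levels were scaled by TMM over all 10 libraries without a filter, so they differ slightly from single-gene CPM. A gene was taken as detected in the tumour line at 1 CPM or more in all 3 DMSO libraries. Genes at 0 counts at 2 months were given a bound from 3 counts over the group, and intervals (95%) cover counting error only. A count of 3 in a library came to between 0.124 and 0.172 CPM.

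Named genes were, first, the 10 largest changes in each direction among genes called in both fits, at a mean log2 CPM of 3 or more and with no overlap between the ages, separately for genes detected and not detected in the tumour line (clone names and pseudogenes left out). Second came the tested members of the steroid synthesis, ketone body and Leydig marker lists. Last came, from each other list, up to 3 called members per direction and up to 2 called by TMM only. Genes named outside this rule were chosen after their values were seen. The part, its lists and its tests were chosen with earlier results of these data known. The alternatives tried were 3 other scalings (RLE, upper quartile, total counts), limma-voom, DESeq2 (1.42.0), 2 other filters, line genes only, a minimum fold change, the replicate number as a block, each library left out, the median transcript length, and length with GC content. Gene positions and promoters are from RefSeq, GRCm38.p6. Some results for single genes are not reported here.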

Additional observations from a re-analysis of the deposited data

How the results depend on the processing

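The counts of genes that rose and fell (768 and 743) were within 1.5 times under RLE and upper quartile scaling, DESeq2, limma-voom and length with GC content. They were 311 and 528 with total-count scaling, 1239 and 1254 without a count filter, 421 and 335 at 10 CPM or more in 2 libraries, 200 and 145 among genes of the tumour line, 133 and 112 with a minimum log2 fold change of 1, and 1538 and 1691 with the median transcript length, which shared 674 and 661 genes with the main result. By TMM alone the counts (2214 and 2471) were 531 and 1301 with total counts, 1092 and 1282 among line genes, and 213 and 292 with the minimum fold change. With 1 library left out they ran from 260.0 to 4283 higher and from 618 to 5577 lower by TMM, and from 149 to 2353 and from 150.0 to 3002 in both fits. Total counts moved the median of all genes to -0.21 and upper quartile scaling to 0.17 on the log2 scale, and the share of TMM calls that were higher from 47.3% to 29.0% and 59.6%. Of the calls in both fits, 50.8% were higher, against 37.1% with total counts. With the replicate block 776 genes rose and 944 fell, and by TMM 2088 were higher and 2686 lower; same-numbered libraries did not deviate together (correlation -0.09 by TMM and -0.07 with length adjusted), so they share only a number. The replicate block lost the calls of 3 named genes (Foxo4, Acta2 and Egfl7) and added those of 5. Lrp1, a lipoprotein receptor, stood at 0.19 with the longest and -1.95 with the median transcript length; the cause was not tested. At these depths 3 counts came to between 0.124 and 0.172 CPM, and genes under that level could not be compared.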
